A study of Mus musculus with 24 samples.

Results

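The 49 genes described here run the cell division cycle. They comprise 6 genes of the G1 cyclins and their kinase, 3 transcription factors, 9 genes of replication licensing and the fork, 4 genes of nucleotide supply, 23 mitotic genes and 4 inhibitors of cyclin-dependent kinases (Cdk inhibitors). The genes were taken by a list of symbols, drawn up with earlier results of these data known, and all 49 were found among the 48820 gene entries of each of 4 count tables. All 49 also passed the filter on low counts in every comparison, whose tables held between 16053 and 17517 genes after filtering. The 9 replication genes and the 4 genes of nucleotide supply are called the 13 S phase genes below.

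RNA-seq counts were given for 24 mouse libraries in 8 groups of 3. The series asks how liver cells change when the ligands GDF2 (BMP9) and BMP10 or their signal transducer Smad4 are removed. In Bmp9/10-HSC-KO mice, floxed Gdf2 and floxed Bmp10 were deleted by Lrat Cre, which is active in hepatic stellate cells (HSCs). Liver macrophages and endothelial cells (ECs) of these mice at 8 to 10 weeks, and whole livers at 12 weeks, were set against controls named BMP9/10 control or control, whose alleles the labels do not give. In Smad4FF cKO mice, floxed Smad4 was deleted by Vav1 Cre, which acts in all blood cell lineages and not in macrophages alone, and their liver macrophages at 8 to 10 weeks were set against Smad4FF macrophages. All mice were C57BL/6 per the labels, and C57BL/6J per the methods of the study. The gate for macrophages was CD45+Ly6C-F4/80+CD64+ and that for ECs CD45-CD31+, and 3 mice gave both a macrophage and an EC library. Within a group each library has a name of its own in the labels, read here as that of the mouse, and the methods of the study call the replicates independent.

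Library depth ran from 60911527 to 110879155 counts. Smad4 fell in Smad4FF cKO macrophages (log2 fold change -1.39, adjusted p = 0.0023), and Gdf2 and Bmp10 fell in Bmp9/10-HSC-KO livers (-2.55, adjusted p = 0.013, and -4.07, adjusted p = 0.0066). The sorted cells carried their defining markers in the control groups, where the summed level of 10 Kupffer cell genes was between 27200 and 34040 CPM (counts scaled to the library total times its TMM factor) in macrophages and that of 12 endothelial genes between 17890 and 18220 CPM in ECs. The Kupffer cell sum was 220 to 499 CPM in HSC-KO macrophages and 1553 to 1761 CPM in Smad4FF cKO macrophages, with 9 of the 10 genes called lower in each. EC HSC-KO replicate 1 stood apart from the other HSC-KO ECs, with 51970 CPM of the sinusoidal EC gene Dnase1l3 against 2565 and 1082 CPM. By the library names, the same mouse gave HSC-KO macrophage replicate 3. That macrophage library had the highest Kupffer cell sum of its group, 499 CPM. By their Xist counts, all Smad4FF and cKO libraries were male, and both sexes occurred among the Bmp9/10 libraries, unevenly between genotypes. Of the macrophage libraries, control replicate 3 and HSC-KO replicates 2 and 3 were female. Of the EC libraries, control replicate 1 and HSC-KO replicates 1 and 3 were female. The liver libraries were female except HSC-KO replicate 3. In bulk samples, fewer cells of a type and less RNA per cell cannot be told apart.

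A dividing cell passes through G1, copies its DNA in S phase and separates the copies in mitosis. D cyclins and then E cyclins activate their kinases in G1, which frees E2F factors to switch on the genes of DNA replication and nucleotide synthesis. The mitotic genes are switched on later, in G2, by the B-Myb (Mybl2) and Foxm1 complexes, and Cdk inhibitors hold the kinases back. Kupffer cells, the resident macrophages of the liver, and adult liver ECs are known to renew themselves slowly, while monocyte-derived macrophages can divide for a time as they fill an empty niche.

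The start-site sequences of these genes differ between the S phase and the mitotic class. Windows of 300 bases (250 before and 50 after the annotated start) were read from RefSeq for GRCm38.p6 and were found for 39 of the 49 genes, which gave 44 windows. Letters were searched on both strands and overlapping matches were counted separately. The CHR letters (TTTGAA or TTTAAA) were in 18 of 20 windows of mitotic genes (90.0%), in 38.5% of the 13 windows of S phase genes and in 27.6% of all 32851 windows. CCAAT was in 90.0% of mitotic, 76.9% of S phase and 37.4% of all windows, and CHR and CCAAT letters together were in 85% of mitotic, 30.8% of S phase and 10.7% of all windows. E2F letters (TTTGGCGC, TTTCCCGC, TTTCGCGC or TTTGCCGC) were in 5 of 13 S phase windows (38.5%), 1 of 20 mitotic windows and 2.26% of all windows. Among the mitotic windows, that of Nusap1 held none of the letters, that of Bub1 no CHR and that of Birc5 no CCAAT. A match is a description of the letters in the window, not evidence that a factor binds there.

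The sequences below show the letters in 4 mitotic genes that rose in Smad4FF cKO macrophages, and in 2 genes of the replicative helicase. Each runs from 170 bases before to 30 bases after the start, 5′ to 3′ on the strand of the gene, with CHR, CCAAT and E2F letters (or their reverse complements) in capitals. Ccnb2 lies at chr9:70421525-70421724 (minus strand), Cdc20 at chr4:118437314-118437513 (minus), Ube2c at chr2:164769759-164769958 (plus), Prc1 at chr7:80294281-80294480 (plus), Mcm5 at chr8:75109339-75109538 (plus) and Mcm6 at chr1:128359676-128359875 (minus), all in GRCm38.p6.
Ccnb2: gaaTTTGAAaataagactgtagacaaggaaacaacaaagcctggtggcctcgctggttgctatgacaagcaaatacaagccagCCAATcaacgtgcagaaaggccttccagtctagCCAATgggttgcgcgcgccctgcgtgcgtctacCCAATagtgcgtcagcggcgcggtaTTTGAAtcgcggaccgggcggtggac
Cdc20: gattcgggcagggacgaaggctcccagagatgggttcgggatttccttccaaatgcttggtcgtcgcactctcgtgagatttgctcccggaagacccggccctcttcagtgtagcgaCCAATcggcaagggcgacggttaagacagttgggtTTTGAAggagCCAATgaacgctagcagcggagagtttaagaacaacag
Ube2c: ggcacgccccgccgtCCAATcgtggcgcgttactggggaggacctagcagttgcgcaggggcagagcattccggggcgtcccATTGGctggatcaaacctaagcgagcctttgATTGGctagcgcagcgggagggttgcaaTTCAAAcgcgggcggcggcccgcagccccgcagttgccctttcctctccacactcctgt
Prc1: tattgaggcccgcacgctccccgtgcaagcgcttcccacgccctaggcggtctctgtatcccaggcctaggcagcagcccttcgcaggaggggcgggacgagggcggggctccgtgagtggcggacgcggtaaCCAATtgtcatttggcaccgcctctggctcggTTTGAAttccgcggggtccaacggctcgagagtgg
Mcm5: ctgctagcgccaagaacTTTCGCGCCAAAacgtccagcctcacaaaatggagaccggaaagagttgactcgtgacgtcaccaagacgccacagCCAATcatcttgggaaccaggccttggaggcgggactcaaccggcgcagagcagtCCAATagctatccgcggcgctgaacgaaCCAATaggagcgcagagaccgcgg
Mcm6: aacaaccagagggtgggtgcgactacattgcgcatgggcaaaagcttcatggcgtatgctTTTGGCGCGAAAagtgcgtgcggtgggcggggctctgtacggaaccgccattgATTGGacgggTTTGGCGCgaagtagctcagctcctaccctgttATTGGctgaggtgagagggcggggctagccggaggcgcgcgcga
The Ccnb2, Cdc20, Ube2c and Prc1 stretches each hold CHR and CCAAT letters and no E2F letters, while the Mcm5 and Mcm6 stretches hold E2F and CCAAT letters and no CHR. The longer window of Mcm5 has CHR letters at -221, upstream of the printed stretch.

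Levels set the scale for what follows. Per kilobase of exon, control macrophages of the Bmp9/10 experiment had the highest level of these genes for Ccnd1 (64.1 CPM per kilobase), the cyclin that starts G1, followed by the Cdk inhibitor Cdkn1b (45.1) and the polymerase clamp Pcna (41.7). The lowest levels were those of Ccne2 (0.225 CPM per kilobase), Bub1 (0.256) and Kif11 (0.267). Control ECs had Ccnd1 (136 CPM per kilobase), Ccnd2 (77.8), Cdkn1b (66.3) and Cdkn1a (61.3) at the top, and control livers Ccnd1 (21.4) and Pcna (8.31). The summed level of the 23 mitotic genes was 206 to 227 CPM in the control macrophages of the Bmp9/10 experiment, 126 to 195 CPM in Smad4FF macrophages, 105 to 203 CPM in control ECs and 18.5 to 23.2 CPM in control livers. Levels are scaled within each table, so that those of different experiments are set side by side without a test.

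**Figure D1:**
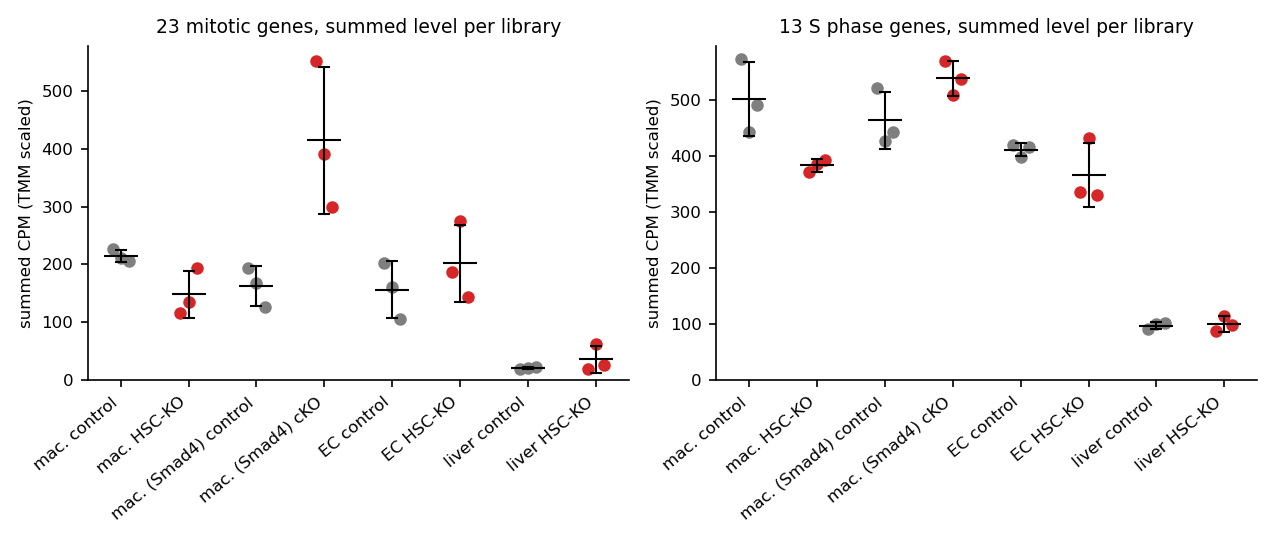
Summed TMM-scaled CPM of the 23 mitotic genes (left) and the 13 S phase genes (right) in every library; grey points are control and red points mutant libraries, the line is the group mean and the bar its SD (n = 3). The Smad4FF cKO macrophages lie between 300.2 and 552 CPM for the mitotic genes, above every Smad4FF library, while the HSC-KO macrophages lie between 116 and 194 CPM, below their controls on this scaling but not with library size alone.

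Mitotic genes were higher in Smad4FF cKO macrophages than in Smad4FF macrophages, and S phase genes were not called. A gene was called where the Benjamini-Hochberg adjusted p of edgeR's quasi-likelihood test was below 0.05 and the log2 fold change above 1 in size. By this rule 21 of the 49 genes (42.9%) were higher and none was lower, against 5.43% of the 17517 genes tested called in either direction 2.76% higher and 2.67% lower. The same 21 genes passed at any fold change, against 7.74% of all genes tested, and 31 had an unadjusted p below 0.05, against 21.4%. Of the 23 mitotic genes 17 (73.9%) rose, with a median log2 fold change of 1.51 and a range of 0.42 to 2.11, beside a median of 0.04 over all genes tested. The 13 S phase genes had a median of 0.37 and none was called (edgeR); 4 had an unadjusted p below 0.05, and DESeq2 called none either. The groups did not overlap for 22 of the 23 mitotic genes, all with the cKO libraries above (95.7%), where 15% of all genes tested had every cKO library above every Smad4FF library. Over the 49 genes 32 did not overlap (65.3%, against 29.4% of all genes tested), 1 of them below (14.5% of all genes tested).

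The 8 spindle genes had a median log2 fold change of 1.81, the highest of the mitotic groups, and 7 of them rose. Prc1, which bundles the microtubules of the spindle midzone, stood at 6.70, 6.42 and 4.45 CPM in Smad4FF and at 37.7, 19.6 and 18.8 CPM in Smad4FF cKO macrophages. The cKO libraries were all above the controls, and the log2 fold change was 2.11 (95% interval 1.37 to 2.85, adjusted p = 0.0075), a 4.33-fold rise. Nusap1, a microtubule-binding protein of the spindle (log2 fold change 1.88), Cenpf and Cenpe, proteins of the kinetochore (1.79 and 1.14), and Tpx2, the activator of Aurora A at the spindle (1.51), also rose. So did the motors Kif11, which pushes the spindle poles apart (1.82), and Kif20a, which acts at the midzone (1.88). Kif23, the motor of the centralspindlin complex, had a log2 fold change of 1.02 that did not pass (adjusted p = 0.068).

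Among the mitotic kinases and the chromosomal passenger complex, 5 of 7 genes rose. Birc5 (survivin), the passenger complex subunit, stood at 7.76, 6.69 and 4.55 CPM in Smad4FF and at 28.8, 25.6 and 15.9 CPM in cKO macrophages, with no overlap (log2 fold change 1.89, interval 1.22 to 2.55, adjusted p = 0.0079). Plk1, the kinase that drives mitotic entry and exit, went from 2.46, 3.28 and 2.10 CPM to 11.6, 14.4 and 4.94 CPM (1.98, adjusted p = 0.024). The third cKO library was the lowest for both genes and still above every control. Cdca8 (borealin), the checkpoint kinase Bub1b and Aurka rose by 1.36, 1.48 and 1.18 on the log2 scale. Aurkb and Bub1 had fold changes of 0.85 (adjusted p = 0.092) and 1.19 (adjusted p = 0.15).

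The cyclins of mitosis and the parts of the anaphase-promoting complex were also higher, 4 of 6 being called. Ube2c, the ubiquitin-conjugating enzyme that serves this complex, stood at 6.36, 6.33 and 3.88 CPM in Smad4FF and at 24.5, 16.4 and 13.6 CPM in cKO macrophages (log2 fold change 1.72, adjusted p = 0.012). Its activator Cdc20 rose from 7.57, 5.88 and 4.88 to 23.4, 16.5 and 10.8 CPM (1.47, adjusted p = 0.027). Ccnb2 rose from 11.2, 9.82 and 5.04 to 34.2, 23.5 and 17.7 CPM (1.53, adjusted p = 0.039). In each of these genes every cKO library was above every Smad4FF library. Ccnb1 rose by 1.73 with an adjusted p of 0.049, and Ccna2, with 1.63, missed the threshold (0.055).

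Cdk1, the kinase that binds the mitotic cyclins, was the exception among the mitotic genes. Its levels were 28.6, 23.7 and 19.4 CPM in Smad4FF and 38.3, 29.8 and 27.6 CPM in cKO macrophages, where the groups overlapped (log2 fold change 0.42, interval -0.03 to 0.86, adjusted p = 0.27). Top2a, the topoisomerase that untangles sister chromatids, rose from 28.4, 20.3 and 17.5 to 80.9, 54.5 and 44.7 CPM (1.44, adjusted p = 0.017). Mki67, which coats mitotic chromosomes and marks cycling cells, stood at 13.9, 9.01 and 8.51 CPM in Smad4FF and at 45.0, 20.4 and 20.1 CPM in cKO macrophages. The groups of Mki67 did not overlap, but its adjusted p was 0.054 at a log2 fold change of 1.45.

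Upstream of mitosis, Foxm1, the transcription factor of the G2 genes, rose from 1.08, 0.797 and 1.134 CPM to 4.04, 5 and 2.20 CPM in Smad4FF cKO macrophages (log2 fold change 1.90, adjusted p = 0.018). Mybl2 had a log2 fold change of 0.65 (adjusted p = 0.18) and E2f1 one of -0.29 (adjusted p = 0.26). Ccnd2, a D cyclin of G1, rose from 138, 65.0 and 102 CPM to 375, 240 and 389 CPM (1.72, adjusted p = 0.015). The other G1 genes were not called and had log2 fold changes between 0.08 and 0.66.

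None of the 13 S phase genes was called, while 12 of them had a positive log2 fold change, up to 0.64. For 4 (Mcm6, Mcm7, Rrm1 and Tyms) every cKO library was above every Smad4FF library (30.8%, against 15% of all genes tested). Mcm6, a subunit of the replicative helicase, was at 31.4, 15.8 and 24.2 CPM in Smad4FF and at 36.5, 38.0 and 36.7 CPM in cKO macrophages (log2 fold change 0.64, interval 0.09 to 1.18, adjusted p = 0.16). Mcm2, Cdc45 and Rrm1, the large subunit of ribonucleotide reductase, had values of 0.61, 0.58 and 0.54 with adjusted p of 0.28, 0.21 and 0.11. Tk1, thymidine kinase of the nucleotide salvage pathway, gave 73.4, 92.6 and 87.8 CPM against 106, 80.2 and 76.2 CPM (0.05, interval -0.34 to 0.43). For Pcna the interval was -0.31 to 0.25 around -0.03. The summed S phase level was 428 to 521 CPM in Smad4FF and 509 to 571 CPM in cKO macrophages, ranges that overlap. With library size alone they did not (400.3 to 499 and 533 to 606 CPM).

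Of the Cdk inhibitors, Cdkn1a (p21) and Cdkn2c (p18) rose. Cdkn1a went from 58.9, 34.6 and 42.4 CPM to 106, 88.3 and 109 CPM (log2 fold change 1.16, adjusted p = 0.015) and Cdkn2c from 3.03, 3.24 and 2.88 CPM to 6.95, 6.51 and 6.39 CPM (1.12, adjusted p = 0.009). Both rose without overlap, in the same libraries in which the mitotic genes were higher. Cdkn1b (p27) and Cdkn1c (p57) had log2 fold changes of -0.15 and -0.13 with adjusted p of 0.66 and 0.93.

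The number of calls in Smad4FF macrophages depends on single libraries, while the direction of the mitotic genes does not. Without 1 library at a time the count of genes called was 9, 5 and 3 (Smad4FF replicates 1, 2 and 3) and 4, 12 and 23 (cKO replicates 1, 2 and 3). In all 6 of these fits all 23 mitotic genes had a positive log2 fold change, with a median between 1.18 and 1.74, and Birc5, Ube2c and Prc1 were called in each. The summed level of 12 endothelial markers was 2146, 599 and 2014 CPM in Smad4FF and 2104, 2067 and 1627 CPM in cKO macrophages. With that level as a covariate, an alternative chosen after seeing the data, 6 genes were called (Ccnd2, Ube2c, Birc5, Prc1, Cdkn1a and Cdkn2c), and all 23 mitotic genes again had positive values with a median of 1.51.

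Other cell type markers moved in the same comparison. The summed level of 8 monocyte genes was 146 to 183 CPM in Smad4FF and 657 to 922 CPM in cKO macrophages, with 1 gene called higher and 1 lower among 7 tested and 4 of the 7 with negative log2 fold changes. That of 8 B and plasma cell genes was 129 to 198 and 278 to 333 CPM, with 2 of 8 higher (Cd79b and Ighm) and 5 of 8 on the negative side, and that of 10 T and NK cell genes was 75.2 to 179 and 77.4 to 318 CPM, with none of 10 called. Hepatocyte genes summed to 1519 to 1834 and 2954 to 5302 CPM, with 1 of 9 higher (Trf, 1187 and 3772 CPM in the mean) and 7 of 9 on the negative side. Their part in the levels of the mitotic genes was not tested. Exons of Ube2c, Kif20a and Prc1 overlap an opposite-strand gene over 22.8%, 29.3% and 11.1% of their length, and the use of the strand in counting is not given in the sources used here. The partners of Ube2c (Tnnc2, at most 0.0258 CPM) and Kif20a (Cdc23, log2 fold change 0.28) were close to 0 or nearly level, and that of Prc1 (Rccd1) stood at 0.872 and 1.92 CPM.

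**Figure D2:**
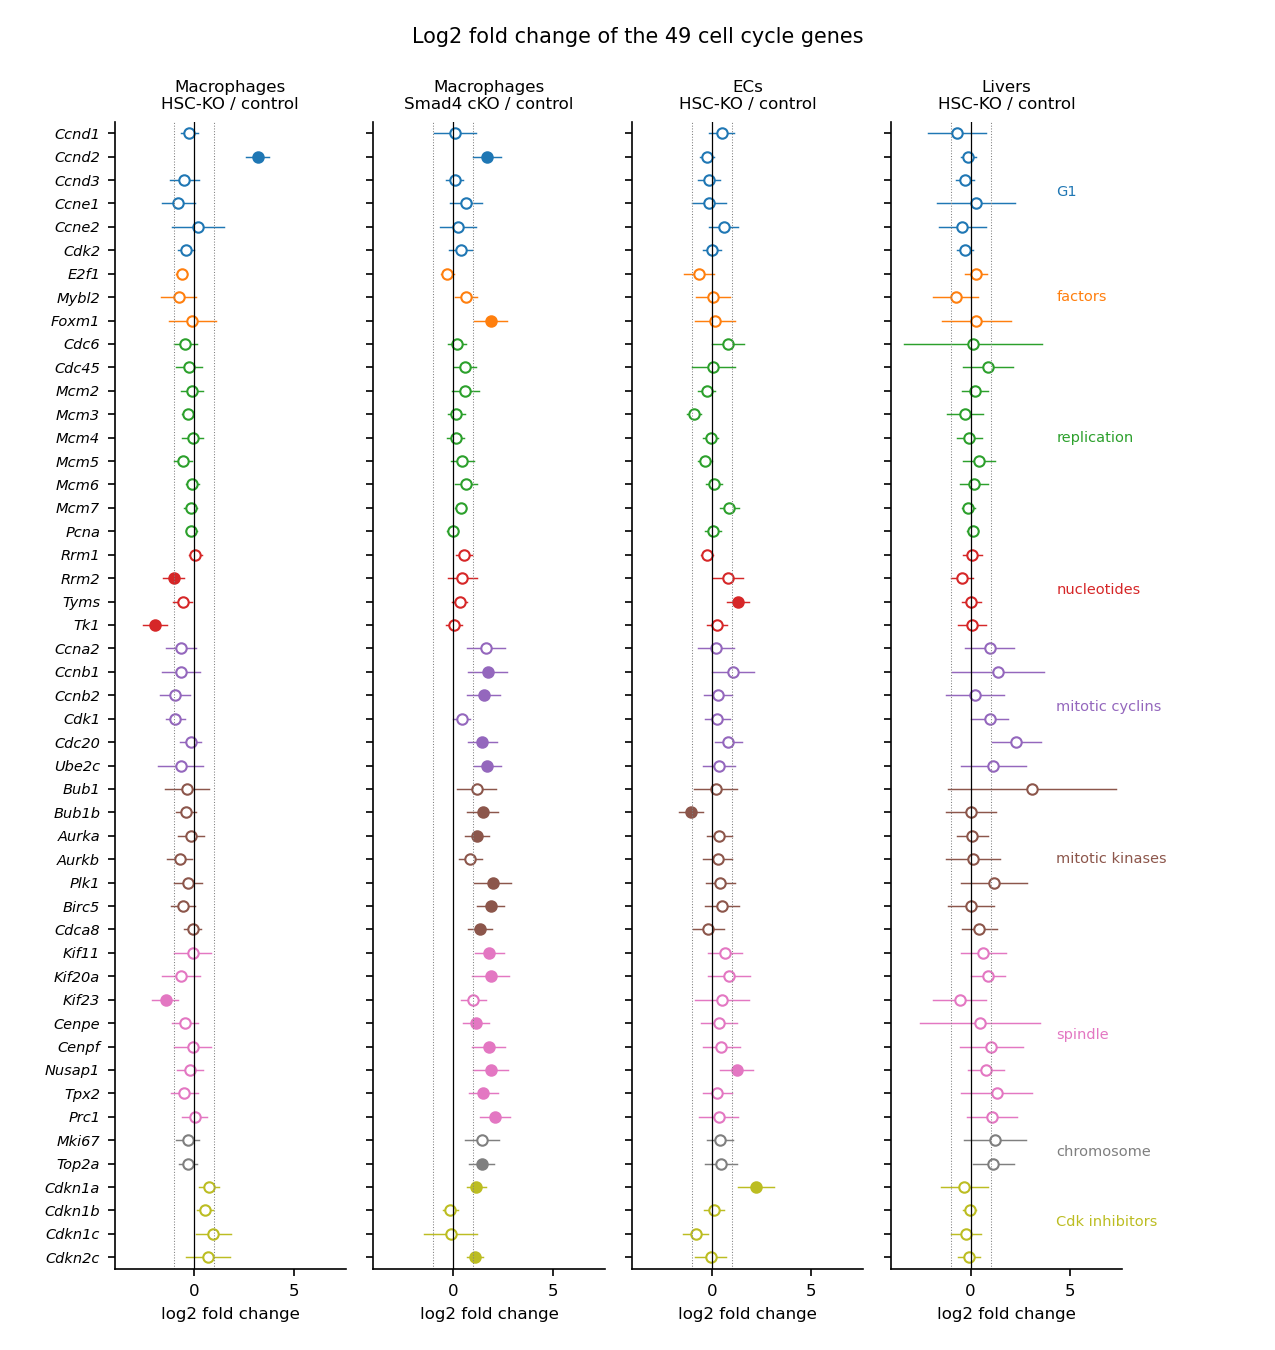
Log2 fold change with its 95% interval of each of the 49 genes in the 4 comparisons, ordered and coloured by role; filled points are called, open points are not, and dotted lines mark 1 and -1. In Smad4FF cKO macrophages the 17 filled mitotic points lie between 1.14 and 2.11, while in HSC-KO macrophages 22 of the 23 mitotic points lie below 0.

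HSC-KO macrophages gave another pattern: Ccnd2 rose, while Tk1, Rrm2 and Kif23 fell. These 4 of the 49 genes (8.16%) were called, beside 11.7% of the 16337 genes tested, of which 6.32% were higher and 5.34% lower. At any fold change 7 of the 49 passed, against 19.2% of all genes tested, and 15 had an unadjusted p below 0.05, against 33.1%. Counted in either direction, none of these shares of the 49 is above that of all genes tested. Log2 fold changes were negative for 41 of the 49 genes, with a median of -0.34, against 0.04 over all genes tested. The 23 mitotic genes had a median of -0.42 with 1 called, the 13 S phase genes a median of -0.29 with 2 called, and all 4 Cdk inhibitors had positive values with none called. Every HSC-KO library lay below every control for 17 of the 49 genes (34.7%, against 19.6% of all genes tested) and above for 3 genes (6.12%, against 20.7%), 20 genes in all (40.8%, against 40.3%).

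Ccnd2 stood at 25.7, 38.6 and 32.7 CPM in controls and at 206, 372 and 301 CPM in HSC-KO macrophages. Every HSC-KO library was far above every control, and the rise was 9.06-fold (log2 fold change 3.18, interval 2.58 to 3.77, adjusted p = 0.00024). Ccnd1 and Ccnd3, the other D cyclins, had log2 fold changes of -0.25 and -0.50 and were not called. Per kilobase, Ccnd2 made up 4.44% ± 1.41 (SD, n = 3) of the D cyclins in control macrophages and 32.9% ± 3.59 in HSC-KO macrophages, and Ccnd1 80.7% ± 3.36 and 57.6% ± 2.60. The Smad4FF macrophages had 11.9% ± 3.38 of Ccnd2 and the cKO macrophages 27.3% ± 4, so that in both experiments the ranges of the mutant and control libraries did not overlap. Ccne1, which follows the D cyclins, gave 3.26, 2.03 and 2.48 CPM in controls and 1.05, 1.44 and 1.92 CPM in HSC-KO macrophages (log2 fold change -0.82, adjusted p = 0.15).

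**Figure D3:**
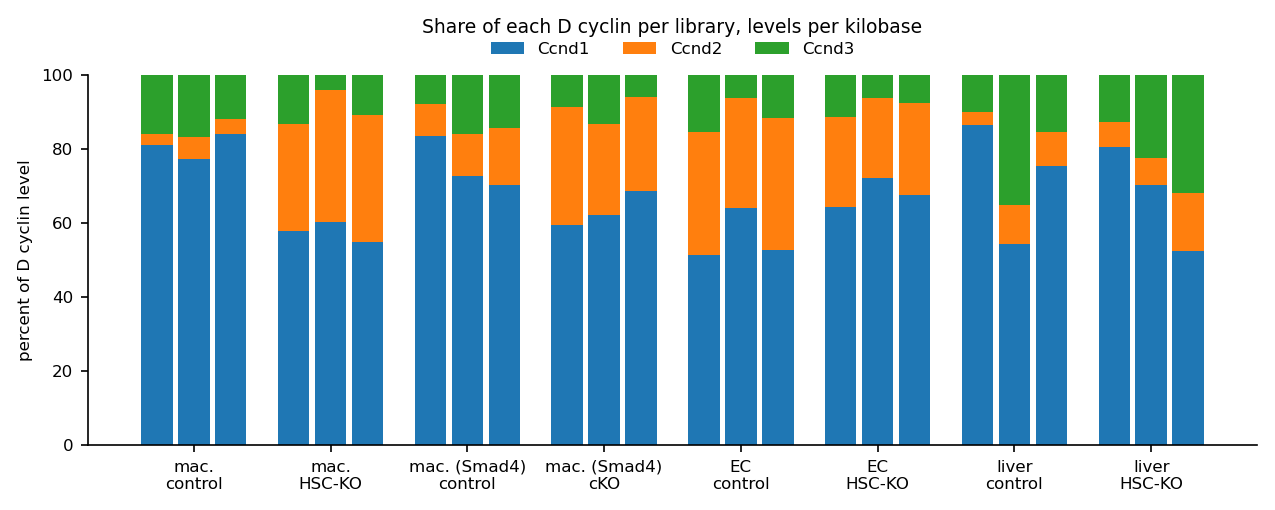
Share of Ccnd1, Ccnd2 and Ccnd3 in the summed D cyclin level of each library, in percent, from CPM per kilobase of exon; each bar is 1 library and bars stand in groups of 3. Ccnd2 takes 28.9 to 35.8% in HSC-KO macrophages against 3.19 to 5.96% in their controls, and 29.9 to 35.5% in control ECs against 21.5 to 24.8% in HSC-KO ECs.

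Of the 4 genes of nucleotide supply, Tk1 and Rrm2 fell in HSC-KO macrophages. Tk1 stood at 66.6, 42.8 and 65.8 CPM in controls and at 10.4, 16.1 and 17.7 CPM in HSC-KO macrophages, a 3.96-fold fall without overlap (log2 fold change -1.99, interval -2.57 to -1.40, adjusted p = 0.0017). Rrm2, the small subunit of ribonucleotide reductase, stood at 21.3, 22.2 and 14.4 CPM in controls and at 7.38, 9.25 and 11.4 CPM in HSC-KO macrophages (-1.05, adjusted p = 0.019). Its large subunit Rrm1 had a log2 fold change of 0.04 (interval -0.28 to 0.36). Tyms, thymidylate synthase, had one of -0.59 (adjusted p = 0.088). The call of Rrm2 held in 7 of 15 settings of the analysis, with adjusted p up to 0.073, and that of Tk1 in all 15. The exons of Tk1 overlap those of the opposite-strand gene Afmid over 1.6% of their length, and Afmid moved the same way (28.8 and 8.74 CPM, log2 fold change -1.72, adjusted p = 0.037).

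The 9 replication genes were all on the negative side and none was called. Every HSC-KO library lay below every control for 7 of the 13 S phase genes (53.8%, against 19.6% of all genes tested), namely Tk1, Rrm2, Tyms, Cdc6, Mcm3, Mcm5 and Mcm7. The 6 subunits of the Mcm helicase ran from -0.55 (Mcm5, 75.7, 45.8 and 58.1 CPM in controls and 41.7, 35.6 and 45.3 CPM in HSC-KO macrophages, adjusted p = 0.09) to -0.09 (Mcm4). E2f1, the factor that activates these genes, stood at 70.1, 59.9 and 64.7 CPM in controls and at 42.4, 39.2 and 43.5 CPM in HSC-KO macrophages. Its groups did not overlap and its adjusted p was 0.0075, but the log2 fold change of -0.64 is below the size needed for a call. The summed S phase level was 443 to 573 CPM in controls and 371 to 393 CPM in HSC-KO macrophages, with no overlap.

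Of the mitotic genes only Kif23 was called, and it fell. It stood at 21.6, 27.3 and 21.3 CPM in controls and at 9.31, 5.20 and 11.1 CPM in HSC-KO macrophages (log2 fold change -1.45, interval -2.11 to -0.80, adjusted p = 0.011). Cdk1 gave 18.8, 19.2 and 22.8 CPM against 7.65, 11.0 and 12.5 CPM, without overlap (-0.97, adjusted p = 0.016), just short of the fold required. Ccnb2 gave 10.6, 15 and 14.5 CPM against 4.22, 6.17 and 9.86 CPM (-0.98, adjusted p = 0.07). Every HSC-KO library lay below every control for these 3 and for Aurkb (-0.73), Birc5 (-0.55) and Cenpe (-0.47), none of the latter called, which makes 6 of the 23 mitotic genes (26.1%, against 19.6% of all genes tested). Ube2c, Kif20a, Ccna2 and Ccnb1 had values from -0.69 to -0.67 with overlapping groups. Mki67 had one of -0.34 (26.3, 17.6 and 13.8 CPM in controls, 12.7, 14.7 and 18.1 CPM in HSC-KO macrophages), and the values nearest 0 were those of Prc1 (0.01) and Cdca8 (-0.08).

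The HSC-KO libraries differed among themselves in the mitotic genes. Their summed mitotic level was 116, 135 and 194 CPM, below the controls (227, 212 and 206 CPM), and replicate 3 was the closest to them. By the library names, replicate 3 came from the mouse of EC HSC-KO replicate 1, which stood apart among the ECs. With library size alone in place of TMM factors the groups overlapped, replicate 3 standing at 204 CPM and the controls at 193 to 228 CPM. Without that library 8 genes were called, Ccnb1, Ccnb2, Cdk1 and Aurkb being added on the lower side. With each other library left out, 3 to 5 genes were called. Cdk1 was added without control replicate 1, control replicate 2 or HSC-KO replicate 2. The Xist covariate added Ccnb2 and Cdk1, and the replicate number as a block added Ccnb2. The median over the 49 genes stayed between -0.49 and -0.23 over the 6 fits, and Ccnd2, Tk1 and Kif23 were called in each of them.

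The Cdk inhibitors lay higher in HSC-KO macrophages without a call. Cdkn1a stood at 52.4, 55.7 and 86.9 CPM in controls and at 103, 96.1 and 127 CPM in HSC-KO macrophages, without overlap (log2 fold change 0.74, adjusted p = 0.048, below the fold required). Cdkn1b gave 181, 261 and 174 CPM against 281, 327 and 281 CPM (0.53, adjusted p = 0.077). Cdkn1c and Cdkn2c had values of 0.95 and 0.68 with overlapping groups. Markers of other cell types moved in the same libraries. The summed level of 10 T and NK cell genes was 18.8 to 43.1 CPM in controls and 188 to 335 CPM in HSC-KO macrophages, with 8 of 10 called higher. That of 8 B and plasma cell genes was 82.0 to 119 and 536 to 737 CPM, with 2 of 8 higher (Cd79b and Ighm) and 5 of 8 on the negative side, and that of 8 monocyte genes 124 to 217 and 1416 to 2144 CPM, with 4 of 6 tested higher and 1 lower. The sum of 7 erythroid markers was 57.7 to 69.3 and 70.2 to 103 CPM, with 4 of 6 tested lower (globin genes and Alas2) and 1 higher (Epor), and that of 6 dendritic cell markers 7.43 to 13.4 and 17.6 to 41.1 CPM, with 2 of 6 higher. Hepatocyte genes summed to 3392 to 4515 and 4726 to 5999 CPM, without overlap, with 1 of 9 called lower and 8 of 9 on the negative side. Cholangiocyte genes summed to 0.437 to 4.13 and 3.99 to 6.37 CPM, with 1 of 5 tested higher. The sum of the endothelial markers was 68.9 to 322 and 57.1 to 126 CPM, with 2 of 11 tested lower and 10 of 11 on the negative side. With that endothelial level as a covariate, the alternative chosen after seeing the data, Ccnd2 was called again (log2 fold change 3.35, adjusted p = 0.0014), Tk1 and Kif23 stayed called, Rrm2 did not, and Cdkn1a stood at 0.94 (adjusted p = 0.056). The part of the other marker lists in the levels of Ccnd2, Tk1, Rrm2, Kif23 and the Cdk inhibitors was not tested.

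**Figure D4:**
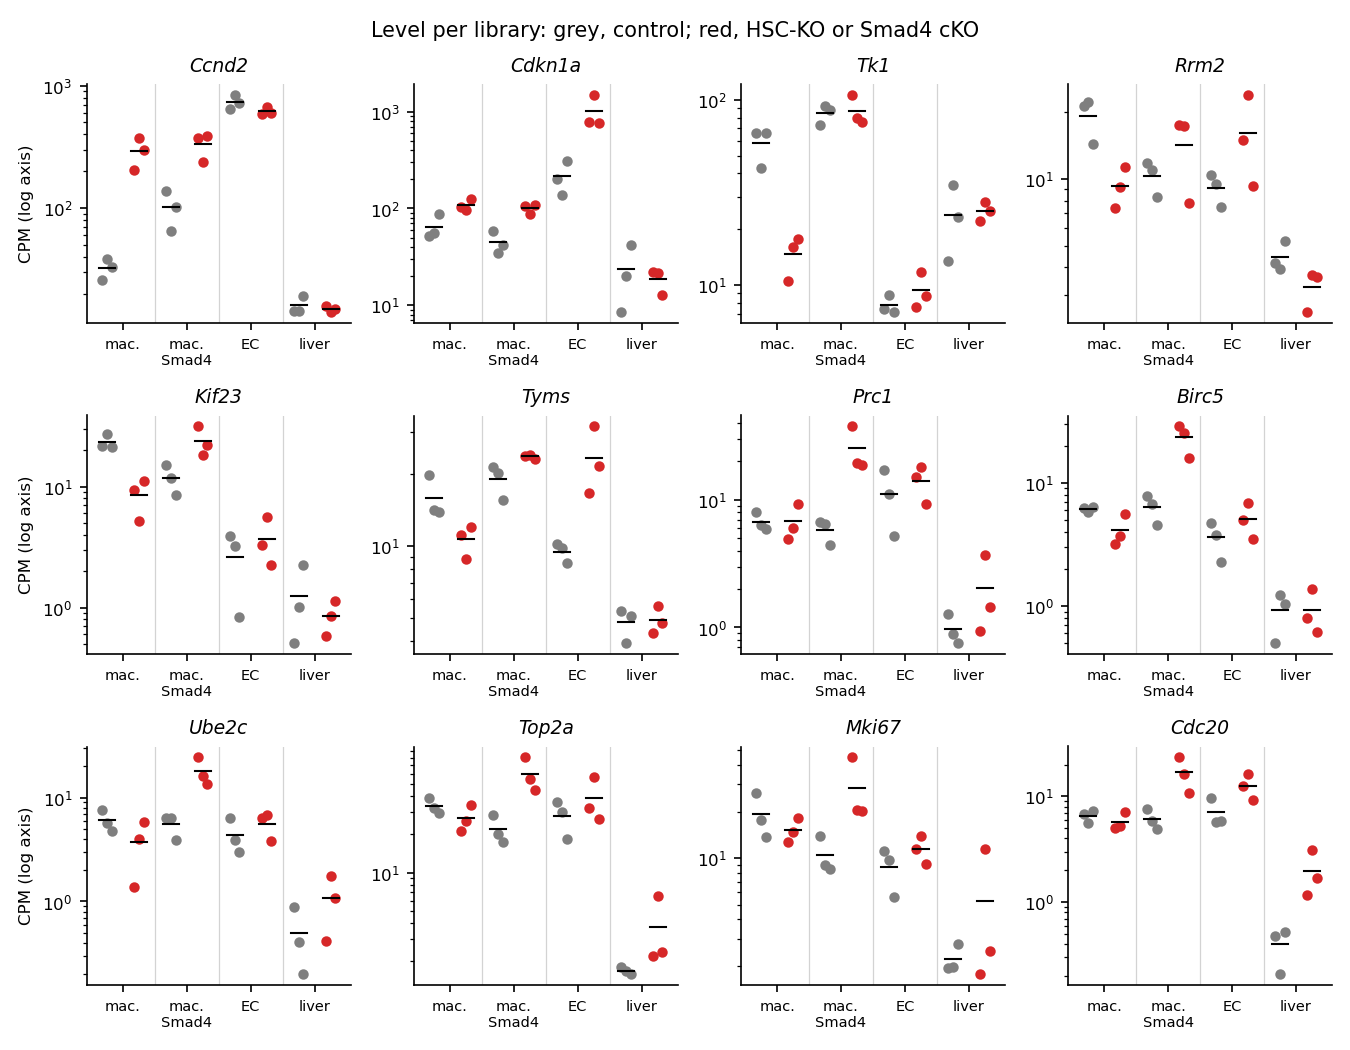
Level of 12 of the genes in every library, in TMM-scaled CPM on log axes; grey points are control, red points HSC-KO or Smad4FF cKO libraries, and lines are group means (n = 3). Ccnd2 is higher in the mutant libraries of both macrophage experiments and lies between 583 and 833 CPM in all 6 EC libraries, while Tk1 lies between 10.4 and 17.7 CPM in HSC-KO macrophages, below all 3 of their controls.

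Whether the 2 macrophage effects differ was tested as the difference of their log2 fold changes over the 12 macrophage libraries. It was called for 14 of the 49 genes (28.6%), beside 2.61% of the 18149 genes tested (1.18% lower and 1.42% higher), and in each of the 14 the HSC-KO effect was the lower. The same 14 passed at any size of the difference, against 2.94%, and 36 had an unadjusted p below 0.05, against 16.3%. Of these, 13 are mitotic genes and the other is Tk1. All 23 mitotic genes had a negative difference, with a median of -1.87, against 0.08 over all genes tested. These effects come from separate experiments with their own controls, so that a difference of effects cannot be told apart from a difference between the experiments.

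For Birc5 the log2 fold change was -0.55 in HSC-KO and 1.89 in Smad4FF cKO macrophages, a difference of -2.39 (interval -3.25 to -1.53, adjusted p = 0.0093). Kif23 had -1.45 and 1.02, a difference of -2.43 (adjusted p = 0.013), and Tk1 -1.99 and 0.05, a difference of -1.99 (adjusted p = 0.0078). Kif20a had the largest difference in size, -2.51, followed by Ccnb2 with -2.47. The remaining calls were Plk1, Prc1, Nusap1, Tpx2, Bub1b, Top2a, Cdc20, Cdca8 and Cdk1, from -2.26 to -1.34. For Ccnd2, which rose in both experiments, the difference of 1.5 (interval 0.59 to 2.42) was not called (adjusted p = 0.086), though DESeq2 and the replicate number as a block called it (adjusted p = 0.014 and 0.017). For Cdkn1a the difference was -0.37 (interval -1.07 to 0.32).

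The count of 14 also depends on single libraries. Without HSC-KO replicate 1 or 2 or cKO replicate 1 it was 3, without Smad4FF replicate 2 or 3 it was 4, without any of the controls of the HSC-KO macrophages it was 6 and without cKO replicate 2 it was 7. Without the remaining 3 libraries it was between 10 and 19. The endothelial marker level as a covariate left 2 calls, Tk1 and Birc5, and DESeq2 made 28. In all 12 of the fits with a library left out the 23 mitotic genes had negative differences, with medians between -2.18 and -1.64, and Tk1, Birc5 and Kif23 were called.

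**Figure D5:**
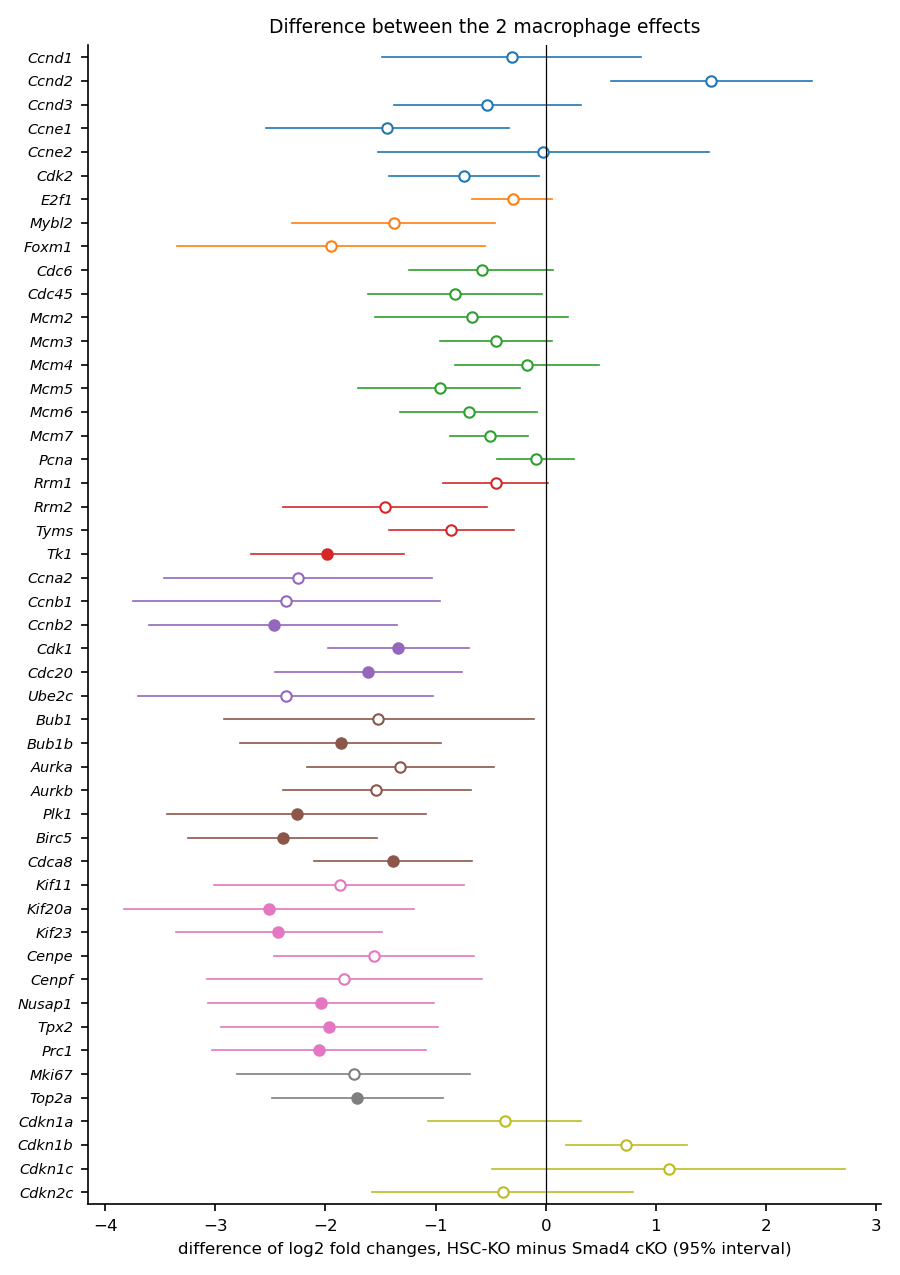
Difference of the log2 fold changes in macrophages, HSC-KO minus Smad4FF cKO, with its 95% interval for each of the 49 genes, coloured by role; filled points are called. The 14 filled points lie between -2.51 and -1.34, and Ccnd2, at 1.5, is the gene farthest to the right.

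In ECs of Bmp9/10-HSC-KO mice Cdkn1a, Tyms and Nusap1 rose and Bub1b fell. These 4 of the 49 genes (8.16%) compare with 13.7% of the 16053 genes tested, 7.68% higher and 6.01% lower. At any fold change 6 passed, against 20.1%, and 12 had an unadjusted p below 0.05, against 32.6%. The median log2 fold change of the 49 genes was 0.27, beside 0 over all genes tested. It depends on the scaling, since library size alone in place of TMM factors moved the median of all genes tested to 0.30. Without 1 library at a time the median of the 49 genes ran from 0.03 to 0.47. The groups did not overlap for 12 of the 49 genes (24.5%), where 40.4% of all genes tested did not overlap. Of the 12, 7 were above and 5 below, against 20.2% of all genes tested in each direction.

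Cdkn1a, the Cdk inhibitor p21 that p53 activates, stood at 203, 137 and 313 CPM in controls and at 779, 1476 and 771 CPM in HSC-KO ECs. Every HSC-KO library was above every control, and the rise was 4.63-fold (log2 fold change 2.21, interval 1.32 to 3.10, adjusted p = 0.0065). Per kilobase, its mean level went from 61.3 to 284 CPM, the highest of the 49 genes in HSC-KO ECs. Cdkn1c, an inhibitor linked to quiescence, gave 56.3, 55.1 and 37.9 CPM against 37.6, 19.9 and 27 CPM (-0.82, adjusted p = 0.065), and Cdkn1b and Cdkn2c had values of 0.10 and -0.06.

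Of the S phase genes of ECs 1 was called, Tyms, and 8 of the 13 had positive log2 fold changes. Tyms rose from 10.2, 9.83 and 8.45 CPM to 16.7, 31.8 and 21.7 CPM (log2 fold change 1.30, adjusted p = 0.0089). Mcm7 gave 8.46, 12 and 10.1 CPM against 14.6, 20.8 and 20.4 CPM (0.88, adjusted p = 0.021), while Mcm3, a subunit of the same helicase, gave 133, 132 and 154 CPM against 69.0, 86.8 and 67.7 CPM (-0.91, adjusted p = 0.0047). Neither helicase gene overlapped between the groups, and neither reached the fold required. The summed S phase level was 399 to 421 CPM in controls and 330 to 433 CPM in HSC-KO ECs, and its means of 412 and 366 CPM changed order with library size alone (373 and 404 CPM).

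Mitotic genes of ECs were mostly on the positive side with overlapping groups. Nusap1 rose from 4.55, 3.59 and 2.11 CPM to 6.51, 11.1 and 6.62 CPM (log2 fold change 1.24, adjusted p = 0.044), and Bub1b fell from 9.69, 12.4 and 7.25 CPM to 4.51, 5.65 and 3.97 CPM (-1.06, adjusted p = 0.024). The median of the 23 genes was 0.38, and 21 were positive. Without 1 library at a time that median ran from 0.13 to 0.66, with 17 to 22 of the 23 genes positive. Their summed level was 203, 161 and 105 CPM in controls and 187, 275 and 144 CPM in HSC-KO ECs, so that the groups overlapped and replicate 2 of the HSC-KO ECs was the highest. Top2a gave 35.8, 30.3 and 18.3 CPM against 32.1, 56.9 and 26.3 CPM (0.45, adjusted p = 0.42).

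Ccnd2, called in both macrophage comparisons, was at 649, 833 and 715 CPM in controls and 583, 664 and 599 CPM in HSC-KO ECs (log2 fold change -0.25, interval -0.62 to 0.12). Its share of the D cyclins per kilobase was 32.9% ± 2.81 in controls and 23.5% ± 1.76 in HSC-KO ECs, without overlap. Ccnd1 had a log2 fold change of 0.49 (adjusted p = 0.25). Cdkn1a and Tyms were called in all 14 settings of the analysis, Bub1b in 8 and Nusap1 in 7. Without HSC-KO replicate 1, the library that stood apart, 6 genes were called, with E2f1, Mcm7 and Cdkn1c added and Bub1b lost. The sum of the endothelial markers was 17890 to 18220 CPM in controls and 12800 to 14050 CPM in HSC-KO ECs, and 2 of the 12 were called lower. With library size alone these sums overlapped (15500 to 17690 and 13750 to 16530 CPM). The monocyte sum was 15.1 to 15.4 and 86.5 to 119 CPM, with 2 of 4 tested higher. The Kupffer cell sum was 1718 to 2174 and 1007 to 1912 CPM, with 6 of 10 genes lower and 1 higher. Of that list, Clec4f stood at 7.43 to 8.05 CPM in control ECs and at 0 in HSC-KO ECs. In control macrophages of the Bmp9/10 experiment it stood at 11030 to 12230 CPM. The list also holds Id3, which the paper names as a target of ALK1, a receptor it reports on ECs too. The sum is thus not a measure of Kupffer cell RNA alone. The erythroid sum was 34.0 to 66.6 and 13.4 to 25.6 CPM, without overlap. The part of these markers in the 4 calls was not tested.

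The HSC-KO effect differed between macrophages and ECs for 6 of the 49 genes (12.2%), against 12.3% of the 18213 genes tested (6.32% higher and 6% lower). The same 6 passed at any size, against 15.4%, and 18 had an unadjusted p below 0.05, against 29.7%. The difference, macrophages minus ECs, was 3.44 for Ccnd2 (adjusted p = 5.2e-05) and 1.78 for Cdkn1c (adjusted p = 0.026). It was -2.24 for Tk1 (adjusted p = 0.0014), -1.88 for Tyms (0.0038), -1.85 for Rrm2 (0.018) and -1.05 for Mcm7 (0.014). Of the 4 genes of nucleotide supply, 3 thus differed, with Rrm1 at 0.30 the exception. The calls of Ccnd2, Tk1, Tyms and Rrm2 held in all 21 settings of the analysis. That of Mcm7 held in 17 of 21 and that of Cdkn1c in 14 of 21. Over the 12 fits with a library left out, they held in 8 and 5. For Cdkn1a, which was called in ECs and not in macrophages, the difference of -1.46 (interval -2.51 to -0.41) was not called (adjusted p = 0.063). None of the 23 mitotic genes was called (edgeR); 9 of them had an unadjusted p below 0.05, and DESeq2 called 3 (Cdk1, Kif23 and Nusap1). This fit does not use that 3 mice gave both kinds of library. With the mouse as a random block (limma voom) 8 genes were called, the 6 above with Cdkn1a (-1.49, adjusted p = 0.042) and Cdk1 (-1.20, adjusted p = 0.049), at an estimated correlation within the mouse of -0.112.

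None of the 49 genes was called in whole livers of Bmp9/10-HSC-KO mice (edgeR), where 2.48% of the 17118 genes tested were, 1.03% higher and 1.45% lower. At any fold change 2.83% of all genes tested passed and again none of the 49. Of the 49, 4 had an unadjusted p below 0.05, against 12.9% of all genes tested, and DESeq2 called 1 of them, Cdc20. The medians were 0.18 for the 49 genes, 0.95 for the 23 mitotic genes and 0.08 for the 13 S phase genes, beside -0.01 over all genes tested. All HSC-KO livers lay above all controls for 5 of the 23 mitotic genes (21.7%, against 8.8% of all genes tested). Over the 49 genes 7 did not overlap (14.3%, against 19.7%), 2 of them below (against 10.9%).

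Cdc20 stood at 0.480, 0.209 and 0.521 CPM in controls and at 1.17, 3.12 and 1.69 CPM in HSC-KO livers. The groups did not overlap, with a log2 fold change of 2.29 (interval 1.07 to 3.52) and an adjusted p of 0.072. The other 3 were Top2a (adjusted p = 0.32), Cdk1 (0.96, 0.37) and Kif20a (0.87, 0.36). Mki67 gave 1.93, 1.98 and 2.79 CPM in controls and 1.77, 11.5 and 2.49 CPM in HSC-KO livers, so that replicate 2 alone was high.

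That liver was also the one with the most mitotic RNA in sum. The summed mitotic level was 18.5, 20.8 and 23.2 CPM in controls and 19.0, 62.6 and 26.7 CPM in HSC-KO livers. Without replicate 2 the median of the 49 genes was -0.07 and that of the 23 mitotic genes 0.15, with 14 of the 23 positive. Erythroid markers summed to 217, 167 and 232 CPM in controls and to 93.7, 232 and 204 CPM in HSC-KO livers, ranges that overlap. Stellate (285.5 to 403.5 and 550.6 to 600.3 CPM, none of 10 called) and hepatocyte sums (127300 to 154000 and 158800 to 210000 CPM, 1 of 9 lower) were higher without overlap. Lower without overlap were the Kupffer cell (399.8 to 570.5 and 145.1 to 198.8 CPM), cholangiocyte, B and plasma cell, and T and NK cell sums. The part of all these markers in the mitotic level was not tested. The levels of Ccnd2 (14.5, 14.5 and 19.3 CPM in controls, 15.9, 14.1 and 14.9 CPM in HSC-KO livers) and Cdkn1a (8.49, 20.1 and 41.9 against 21.9, 21.7 and 12.7 CPM) overlapped between the groups. Their log2 fold changes were -0.11 (interval -0.46 to 0.25) and -0.32 (interval -1.51 to 0.87).

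A further 182 genes of the cycle, listed by role, set the 49 in their pathway. In Smad4FF cKO macrophages 27 of 68 further mitotic genes were called (39.7%, against 5.43% of all genes tested), all higher, and none of 43 further replication genes was (edgeR). Of these 43, 17 had an unadjusted p below 0.05, a larger share than the 21.4% of all genes tested. Log2 fold changes were positive for 34 of the 43, with a median of 0.39 against 0.04 over all genes tested. At any fold change 3 passed, 2 higher and 1 lower. In HSC-KO macrophages 1 of the 68 was higher and 2 were lower (4.41% in all), and 2 of the 43 replication genes were lower (4.65%), shares below the 11.7% of all genes tested. In ECs 2 of the 68 (2.94%) and 4 of the 43 (9.3%) were called, again below the share of all genes tested there (13.7%). In livers none of the 64 mitotic and 42 replication genes tested was (edgeR), with 7 and 5 at an unadjusted p below 0.05 (12.9% of all genes tested).

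Separase (Espl1), the protease that cuts the cohesin ring at anaphase, was the mitotic gene of this longer list with the largest rise in both macrophage comparisons. It stood at 1.79, 1.23 and 0.752 CPM in controls and at 17.2, 18.3 and 18.8 CPM in HSC-KO macrophages (log2 fold change 3.84, adjusted p = 0.00027), and at 1.06, 0.709 and 0.678 CPM in Smad4FF and 5.61, 7.41 and 5.27 CPM in cKO macrophages (2.90, adjusted p = 0.0012). Its rise in HSC-KO macrophages was opposite in sign to 22 of the 23 mitotic genes. Gmnn (geminin), which blocks renewed licensing, fell in HSC-KO macrophages from 36.9, 38.1 and 45.5 CPM to 9.75, 13.8 and 15.5 CPM (-1.62, adjusted p = 0.0015), as Tk1 did. The growth arrest gene Gadd45g fell in both comparisons (-2.14 and -2.20) and in HSC-KO ECs (-1.46, adjusted p = 0.0051).

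Cdkn2a, the locus of the Cdk inhibitor p16 and of p19Arf, rose in Smad4FF cKO macrophages from 0.618, 0.675 and 0.426 CPM to 9.64, 7.80 and 12.6 CPM (log2 fold change 4.12, adjusted p = 0.00034), beside the rises of Cdkn1a and Cdkn2c. In ECs of HSC-KO mice Cdkn2a fell (-2.24, adjusted p = 0.031). There the 36 genes of G1/S control and checkpoint had 8 calls (22.2%, against 13.7% of all genes tested), 6 higher and 2 lower. Among them Mycn, a Myc family factor that drives growth, rose from 1.82, 2.41 and 1.07 CPM to 14.3, 18.1 and 33.0 CPM (3.63, adjusted p = 0.0012), and Btg1, an antiproliferative gene, rose from 48.3, 88.7 and 48.3 CPM to 349, 372 and 357 CPM (2.54, adjusted p = 0.00067). Cenpa, the histone of the centromere, fell in ECs from 78.7, 106 and 106 CPM to 23.9, 22.6 and 18.7 CPM (-2.16, adjusted p = 0.00023), whereas Cenpe and Cenpf of the 49 genes were not called there.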

How the data were processed

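The authors sequenced RNA of sorted liver macrophages, sorted ECs and whole livers, and deposited raw read counts per gene in 4 tables. Per the labels and methods, reads were aligned with HISAT2 to mm10 (GRCm38) and counted with featureCounts after FastQC, and the authors used DESeq2. Sources used here do not give the annotation release, the strand setting or how multiply aligned reads were counted. The tables held 48820 entries. In them 237 symbols were shared by more than 1 entry.

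Genes were kept by edgeR's filterByExpr (minimum count 10, minimum total 15), scaled by TMM factors and tested with edgeR's quasi-likelihood test (edgeR 4.0.16, limma 3.58.1, R 4.3.3) within each table, 3 libraries against 3. All genes were fitted together and p-values adjusted over all of them (Benjamini-Hochberg). A call needed an adjusted p below 0.05 and a log2 fold change above 1 in size. Intervals are 95% intervals of the fit. Differences between effects were fitted over both tables as an interaction. An exact permutation test of 3 against 3 cannot go below 0.1 and was not used. DESeq2 1.42.0, other scalings and filters, the replicate number as a block, an Xist covariate, the mouse as a random block (limma voom) and leaving out each library were alternatives, and the endothelial marker covariate was added after seeing the data.

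Scripts were tested on simulated data. Exon lengths and overlaps came from GENCODE vM21. The genes named beyond the 49 are, by rule, up to 5 called genes with the largest change per comparison among the 182 listed and a mean log2 CPM no lower than 0. The 49 genes and all lists were chosen with earlier results of these data known. Total counts of 60911527 to 110879155 per library set the precision of low genes. Genes named outside the rule (Dnase1l3, Xist, Clec4f, Id3, Cd79b, Ighm, Trf, Alas2, Epor, Gadd45g in ECs and genes whose exons overlap those of the 49) were chosen after their values were seen.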

Additional observations from a re-analysis of the deposited data

Results flagged for a closer look

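The effects of the gene deletions differed by a direct test of the difference (edgeR interaction, 3 libraries per group) for 20 results. Between HSC-KO and Smad4FF cKO macrophages the difference in log2 fold change was negative in each of 14 genes. Among spindle genes it was -2.51 for Kif20a, -2.43 for Kif23, -2.06 for Prc1, -2.04 for Nusap1 and -1.97 for Tpx2. For the mitotic cyclin Ccnb2, Cdc20 and Cdk1 it was -2.47, -1.61 and -1.34. For Birc5, Plk1, Bub1b and Cdca8, kinases and passenger proteins of mitosis, it was -2.39, -2.26, -1.86 and -1.39. For Top2a it was -1.71 and for Tk1 -1.99.

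Between the HSC-KO effects in macrophages and ECs the difference was 3.44 for Ccnd2 and 1.78 for Cdkn1c. It was -2.24 for Tk1, -1.88 for Tyms, -1.85 for Rrm2 and -1.05 for Mcm7. The macrophage experiments had their own controls, and between them experiment and effect cannot be told apart. Of the mice, 3 gave both a macrophage and an EC library.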

How the results depend on the processing

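No result changed its direction past the threshold under any alternative. Of the values per gene and setting, 4504 kept their side of the threshold, 238 fell below it and 103 passed it. Most genes were not called in the main fit, so the 4504 are largely values that stayed uncalled. The 238 can come only from called genes. For the difference between the macrophage effects, Kif20a held its call in 8 of 21 settings, while Tk1 and Birc5 held theirs in all 21. With single libraries left out, the counts of genes called ran from 3 to 8 in HSC-KO macrophages, 3 to 23 in Smad4FF cKO macrophages (mitotic genes 3 to 19), from 3 to 6 in ECs, from 4 to 8 for the difference between macrophages and ECs, and from 3 to 19 for the difference between the macrophage effects (mitotic genes 2 to 18). The medians over the 49 genes ran from 0.77 to 1.09 in Smad4FF cKO macrophages and from -0.07 to 0.39 in livers. An adjusted p at any fold change gave 7 genes in HSC-KO macrophages. The endothelial marker covariate, chosen after seeing the data, gave 6 genes (3 mitotic) in Smad4FF cKO macrophages and 2 (1 mitotic) for the difference between the macrophage effects, where DESeq2 gave 28 (22 mitotic). DESeq2 called 1 gene in livers. For the difference between macrophages and ECs, DESeq2 gave 11 calls, library size alone 10 and a filter of at least 10 counts in every library 10. The causes were not tested. The Xist covariate could not be fitted for the Smad4FF libraries, which were all male. In HSC-KO macrophages it lost Rrm2 and added Ccnb2 and Cdk1, and in ECs it lost Bub1b and Nusap1 and added Cdkn1c. For the difference between the macrophage effects it lost Cdc20, Bub1b and Cdca8 and added Ube2c. Calls for the difference between macrophages and ECs stayed the same, and livers again had none.

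With the replicate number as a block, 4 genes were called in HSC-KO macrophages, 20 in Smad4FF cKO macrophages, 4 in ECs and 0 in livers, 11 for the difference between the macrophage effects and 10 for that between macrophages and ECs. In HSC-KO macrophages Rrm2 was lost and Ccnb2 added. In Smad4FF cKO macrophages Foxm1, Bub1b, Aurka and Cenpe were lost and Ccna2, Kif23 and Mki67 added. Between the macrophage effects Bub1b, Kif20a, Nusap1, Tpx2 and Prc1 were lost and Ccnd2 and Ccnb1 added. Between macrophages and ECs Ccnb2, Cdk1, Kif23 and Nusap1 were added. The deviations of same-numbered libraries correlated between -0.18 and 0.22, and not every library correlated best with its own number. With 3 libraries per group this cannot decide whether same-numbered libraries share more than a number. With the mouse as a random block, 8 genes were called for the difference between macrophages and ECs.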

Other observations

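Some of the further cell cycle genes stood outside the comparisons above. In HSC-KO macrophages the histone gene Hist1h4i fell (log2 fold change -1.54, adjusted p = 0.016), and Bbc3 (Puma), a p53 target that promotes apoptosis, rose from 6.69, 4.58 and 4.16 CPM to 14.6, 12.2 and 16.7 CPM (1.49, adjusted p = 0.0045). In Smad4FF cKO macrophages Iqgap3, a scaffold protein of dividing cells, and Ska3, a kinetochore protein, rose by 2.22 and 2.11 on the log2 scale (adjusted p = 0.026 and 0.025). In HSC-KO ECs Wee1, the kinase that restrains Cdk1, rose from 1.62, 1.60 and 1.09 CPM to 3.79, 5.37 and 5.89 CPM (1.80, adjusted p = 0.0058).

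In whole livers 1 of the further genes was called. Sesn2, a stress-induced p53 target, fell from 13.3, 18.0 and 16.1 CPM to 6.59, 6.99 and 5.71 CPM in HSC-KO livers, with no overlap between the groups (log2 fold change -1.29, adjusted p = 0.0085).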
